A study of Mus musculus with 12 samples.

Results

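The enzymes described here make serine and pass its carbon to folate. They are 9 genes, chosen by name, of 18193 genes on the array: Phgdh, Psat1 and Psph of serine synthesis, Shmt2, Mthfd2, Mthfd1l and Aldh1l2 of the mitochondrial folate pathway, and Shmt1 and Mthfd1 of the cytosolic one. Every probe set annotated with exactly one of these symbols was taken, 22 of 45037, and the brightest probe set of each gene over all arrays stands for it unless another is named. RNA of whole hearts, 500 ng per array, was read on Affymetrix 3′ arrays; the mice were of the outbred CD1 stock. The mice carried a dominant-negative MCU construct (DN-MCU), a form of the pore-forming subunit of the mitochondrial calcium uniporter, or were wild-type (WT) littermates. Adults were 42 days old and all male; neonates were 1 day old, with sex labelled unknown. Genotype and age together gave 4 groups of 3 arrays each. The series title places the inhibition in the myocardium, but the sources used here do not name the promoter driving the construct.

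Cells build serine from the glycolytic intermediate 3-phosphoglycerate. Serine hydroxymethyltransferases then move a carbon unit from serine to tetrahydrofolate, leaving glycine, and the folate-bound unit is oxidised in mitochondria to formate, which leaves for the cytosol and supplies purine and thymidylate synthesis and methylation. Each mitochondrial step has a cytosolic counterpart encoded by another gene. Mthfd2, which uses NAD or NADP in mitochondria, is known as an enzyme of embryonic and dividing cells that is low in most adult tissues. Several of these genes are known targets of the transcription factor ATF4, which is made when mitochondria or amino acid supply are disturbed.

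All values are log2 signals. The hearts' identity was borne out by 8 of 8 cardiomyocyte markers, whose mean lay between 14.71 and 15.33 in every array. One of the Mcu probe sets, 1442031_at, was at 8.44 or more in the 6 DN-MCU arrays and at 4.55 or less in the 6 WT arrays, so its levels follow the genotype labels. The other, 1453166_at, did not separate the genotypes, with 7.39 to 8.14 in DN-MCU and 7.41 to 8.18 in WT arrays. The array DN-MCU adult 3 stood apart, with a mean correlation of 0.931 with its group against 0.957 or more in all other arrays. Its control probe sets for added RNAs (spike-ins) averaged 10.79, against 8.99 to 9.72 in all other arrays. Its adipocyte markers (4 of 8 measured) averaged 4.85, against 8.71 and 9.68 in the other DN-MCU adults and 6.94 to 9.14 in WT adults. The proliferation markers (9 of 10 measured) averaged 6.36 in DN-MCU adult 1, against 3.81 to 4.24 in the other 5 adults. The part of these in the results was not tested. In whole hearts, fewer cells of a type and less RNA per cell cannot be told apart.

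In adult hearts all 9 enzymes had a higher mean in DN-MCU than in WT animals, and Mthfd2, Phgdh, Psat1 and Shmt1 rose at an adjusted p under 0.05 (limma on the 6 adult arrays, Benjamini-Hochberg over 24176 probe sets). The sizes ran from 7.20 on the log2 scale for Mthfd2 to 0.53 for Mthfd1. Over all 11807 genes tested, 0.483% passed as higher and 0.0678% as lower, 50.3% had a difference above 0, and the median difference was 0.0023, against 4 of 9 and a median of 3.20 here. The arrays of the 2 genotypes did not overlap for 8 of the 9 enzymes, DN-MCU being higher in each, against 10.3% of all genes. The enzymes were chosen with earlier results of these arrays known, so these shares describe them and are no independent test.

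Phgdh encodes phosphoglycerate dehydrogenase, which commits 3-phosphoglycerate to serine synthesis. Its signal was 6.04, 5.01 and 5.50 in the WT adults and 10.61, 10.02 and 10.63 in the DN-MCU adults. Every DN-MCU adult lay far above every WT adult. The log2 difference was 4.91 (standard error, SE, 0.32), or 30.0-fold, with a limma adjusted p of 0.00513. Leaving out WT adult 3 or DN-MCU adult 1 gave adjusted p = 0.0571 and 0.0501 with differences of 4.90 and 4.81. All 4 probe sets read for Phgdh have the _x_at suffix, which marks probes that may also bind other transcripts. Of the others, 1426658_x_at (3.40, SE 0.32, limma adjusted p = 0.0188) and 1456584_x_at (2.88, SE 0.29, adjusted p = 0.0243) also rose. The remaining probe set, 1454714_x_at, was erratic: DN-MCU adult 3 was at 9.83 and the other 2 DN-MCU adults were at 2.36 and 2.38. Another 2 probe sets are annotated with Phgdh and a second locus and were not used.

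Psat1, phosphoserine aminotransferase, makes the next intermediate with nitrogen from glutamate. It was at 5.34, 5.05 and 4.74 in WT adults and at 9.27, 8.38 and 8.75 in DN-MCU adults. The groups were again well apart. The difference was 3.76 (SE 0.29), or 13.5-fold, with a limma adjusted p of 0.00943. The second probe set, 1451064_a_at, gave 4.74 (SE 0.32, adjusted p = 0.00513). Without WT adult 2 or WT adult 3 the call of the brighter probe set was lost (limma adjusted p = 0.0871 and 0.0774), with differences of 3.76 and 3.61.

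Psph, phosphoserine phosphatase, releases free serine. Its signals were 7.34, 6.72 and 6.59 in WT adults and 8.59, 8.61 and 9.05 in DN-MCU adults. The groups did not overlap, but the difference of 1.86 (SE 0.26; 3.64-fold) did not pass (limma adjusted p = 0.0652). In a fit of all 12 arrays, which assumes the same spread in every group, it passed (adjusted p = 9.51e-04).

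Mthfd2 encodes the mitochondrial methylenetetrahydrofolate dehydrogenase and cyclohydrolase, and its difference ranked first of the 11807 genes in adults. Its signals were 4.99, 4.31 and 4.16 in WT adults and 12.03, 11.70 and 11.33 in DN-MCU adults. No other enzyme here had groups so far apart. The difference was 7.20 (SE 0.30), or 147-fold, with a limma adjusted p of 0.00141. The other probe set, 1419253_at, gave 6.73 (SE 0.18, adjusted p = 4.58e-04), with a WT adult mean of 3.43 close to 3.35, under which probe sets count as dim. The call of the brighter probe set was kept without any 1 of the 6 arrays, where the difference lay between 7.03 and 7.45 and the largest adjusted p was 0.0309.

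**Figure D1:**
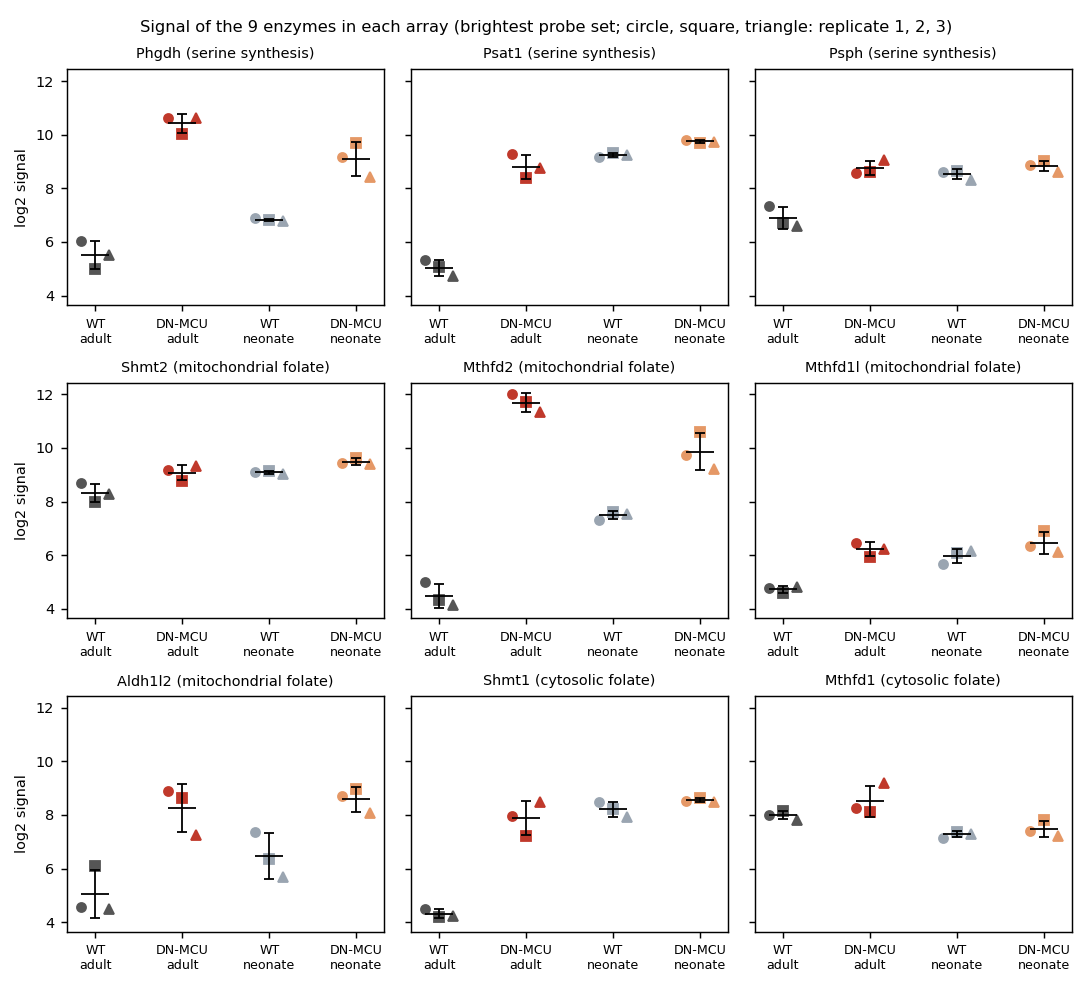
Log2 signal (vertical axis) of the brightest probe set of each of the 9 enzymes in the 4 groups; each point is 1 array, with the bar at the group mean and whiskers of 1 SD. For Mthfd2 the DN-MCU adults sit between 11.33 and 12.03 and the WT adults between 4.16 and 4.99, while the 4 groups of Mthfd1 span only 7.15 to 9.18.

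The other 3 mitochondrial folate enzymes were higher in DN-MCU adults without passing. Shmt2, mitochondrial serine hydroxymethyltransferase, was at 8.68, 7.99 and 8.27 in WT adults and 9.17, 8.75 and 9.32 in DN-MCU adults. The lowest DN-MCU array was just above the highest WT array. The difference was 0.77 (SE 0.25; limma adjusted p = 0.373), and the other kept probe sets gave 0.99 and 0.42. Mthfd1l, the mitochondrial formyltetrahydrofolate synthetase that releases formate, was at 4.78, 4.59 and 4.81 in WT adults and 6.47, 5.94 and 6.25 in DN-MCU adults. The groups were clearly separate, yet the difference of 1.49 (SE 0.20; 2.82-fold) missed the threshold (limma adjusted p = 0.0518). It passed in the fit of all 12 arrays (0.00392), after quantile normalization (0.0480) and after subtraction of array medians (0.0476). Aldh1l2, mitochondrial formyltetrahydrofolate dehydrogenase, was at 4.58, 6.10 and 4.49 in WT adults and 8.90, 8.62 and 7.25 in DN-MCU adults. WT adult 2 and DN-MCU adult 3 lay nearest to the other genotype. The difference was large and imprecise, 3.20 (SE 0.61; 9.18-fold; limma adjusted p = 0.121), and it passed with 12 arrays (0.00995).

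Both cytosolic enzymes had higher means in DN-MCU adults, and only Shmt1 passed. Shmt1, cytosolic serine hydroxymethyltransferase, was at 4.50, 4.18 and 4.25 in WT adults and 7.95, 7.20 and 8.46 in DN-MCU adults. The lowest DN-MCU array was well above the highest WT array. The difference of 3.56 (SE 0.34; 11.8-fold) passed (limma adjusted p = 0.0199). Of its other probe sets, 1422198_a_at (1.78, SE 0.21) and 1425178_s_at (1.35, SE 0.16) passed with an adjusted p of 0.0402 each, and 1425177_at did not (0.86, SE 0.43, adjusted p = 0.593). So the rise was read by 3 of 4 probe sets with sizes that differed, and the probe set that stands for Shmt1 gave the largest. In WT adults it averaged 4.31, against 6.16, 6.47 and 3.19 by 1425178_s_at, 1425177_at and 1422198_a_at. The call of the brightest was lost without WT adults 1, 2 or 3 or DN-MCU adult 1 (limma adjusted p = 0.0929, 0.142, 0.155 and 0.119) and without the filter (0.0594), with differences between 3.50 and 3.66. Mthfd1, the cytosolic enzyme that joins 3 folate activities in 1 protein, was at 8.0, 8.14 and 7.82 in WT adults and 8.27, 8.09 and 9.18 in DN-MCU adults. These groups overlapped, and DN-MCU adult 3 was the highest. Its difference was 0.53 (SE 0.31, 95% confidence interval -0.24 to 1.30; limma adjusted p = 0.662). It shrank to 0.20 when DN-MCU adult 3 was left out. The other probe sets of Mthfd1 gave 0.32 and 0.11.

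Mitochondrial and cytosolic enzymes were then set against each other. Within each array the signal of a cytosolic enzyme was subtracted from that of its mitochondrial counterpart; a probe set has its own brightness, so only changes of this difference between groups can be read. Shmt2 minus Shmt1 was 4.18, 3.82 and 4.02 in WT adults (4.01 ± 0.18, SD, n = 3) and 1.22, 1.56 and 0.85 in DN-MCU adults (1.21 ± 0.35), a difference of -2.80 towards the cytosolic enzyme. With the mean of all kept probe sets of each gene in place of the brightest it was -1.16. Its size depended on the probe sets, as Shmt1 differed by 3.56, 1.78, 1.35 or 0.86 and Shmt2 by 0.99, 0.77 or 0.42. Shmt2 by 1426423_at (0.99) against Shmt1 by 1425177_at (0.86) had the opposite sign. Mthfd2 minus Mthfd1 went the other way: it was -3.01, -3.82 and -3.67 in WT adults and 3.76, 3.61 and 2.15 in DN-MCU adults, a difference of 6.67 towards the mitochondrial enzyme. Mthfd1l minus Mthfd1 was -3.26 ± 0.27 in WT and -2.29 ± 0.58 in DN-MCU adults, a difference of 0.97. In none of these 3 pairs did the genotypes overlap. For Mthfd1l minus Mthfd1 the gap was narrow, with DN-MCU adult 3 at -2.93 and WT adult 3 at -3.01. It was narrow in neonates too, with DN-MCU neonate 3 at -1.10 and WT neonate 3 at -1.15. With 3 against 3 arrays the two-sided exact permutation test cannot go below p = 0.1, which each of the 3 reached (exact adjusted p = 0.16 over 8 tests). Between neonatal DN-MCU and WT hearts they differed by 0.05 for Shmt2 minus Shmt1 (exact permutation p = 0.8), 2.17 for Mthfd2 minus Mthfd1 and 0.29 for Mthfd1l minus Mthfd1 (exact p = 0.1 for both). Aldh1l2 could not be set against the cytosolic Aldh1l1, because the brighter Aldh1l1 probe set was at 7.02 to 9.58 in replicate 3 of every group and at 2.26 to 4.27 in the other 8 arrays.

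**Figure D2:**
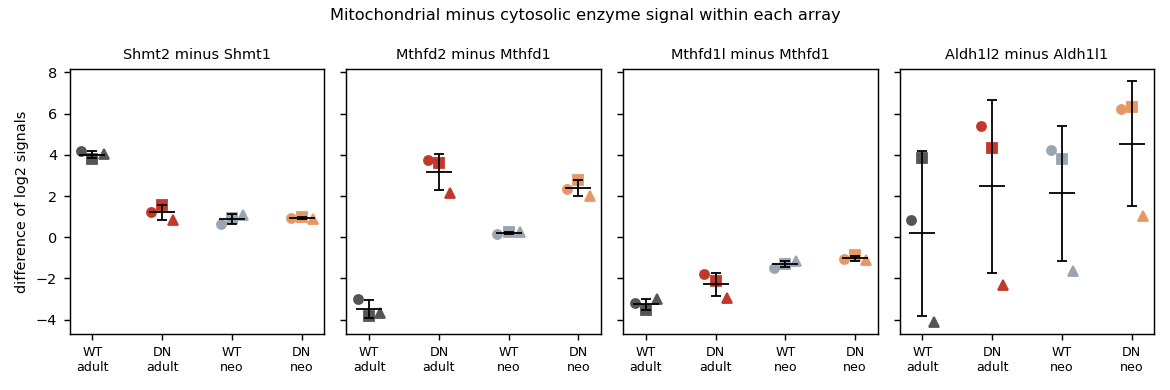
Difference of log2 signals (vertical axis) between a mitochondrial enzyme and its cytosolic counterpart in each array, by group; bars are means and whiskers 1 SD, and circles, squares and triangles are replicates 1, 2 and 3. By the brightest probe sets, Shmt2 minus Shmt1 is lower in DN-MCU adults (1.21) than in WT adults (4.01), and Mthfd2 minus Mthfd1 is higher (3.17 against -3.50). The Aldh1l2 panel is spread by replicate 3 of each group.

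The stretches before and after the transcription starts of the 3 enzymes with the largest rises in adults are shown because all 3 rose in that comparison; their neonatal differences were unequal (2.36, 0.51 and 2.27). The windows hold 250 bases before and 50 after each start, from RefSeq in GRCm38.p6, and 8 of the 9 enzymes were matched (not Aldh1l2). Each is printed 5′ to 3′ on the strand of the gene, with capitals marking the pentamer CCAAT or its reverse complement ATTGG.
Mthfd2, chr6:83317555-83317854, minus strand: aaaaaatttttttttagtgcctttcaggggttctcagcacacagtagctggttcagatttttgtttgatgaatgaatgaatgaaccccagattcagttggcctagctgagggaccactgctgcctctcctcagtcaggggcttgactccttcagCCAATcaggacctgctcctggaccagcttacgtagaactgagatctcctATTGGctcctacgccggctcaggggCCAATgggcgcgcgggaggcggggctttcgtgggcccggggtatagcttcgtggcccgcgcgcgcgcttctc
Psat1, chr19:15925010-15925309, minus strand: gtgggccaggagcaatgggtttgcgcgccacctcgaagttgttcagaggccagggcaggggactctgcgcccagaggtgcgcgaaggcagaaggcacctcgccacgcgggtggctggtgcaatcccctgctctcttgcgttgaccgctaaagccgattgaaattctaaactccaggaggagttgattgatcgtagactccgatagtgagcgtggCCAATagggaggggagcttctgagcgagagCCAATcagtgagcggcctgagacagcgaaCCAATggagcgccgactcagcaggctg
Phgdh, chr3:98339920-98340219, minus strand: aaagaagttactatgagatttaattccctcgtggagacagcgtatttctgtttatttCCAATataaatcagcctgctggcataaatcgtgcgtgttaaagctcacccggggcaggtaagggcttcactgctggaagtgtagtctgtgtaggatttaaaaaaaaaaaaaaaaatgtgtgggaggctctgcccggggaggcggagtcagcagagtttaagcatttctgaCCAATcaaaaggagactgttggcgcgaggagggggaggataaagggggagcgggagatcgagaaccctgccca
The core of the response element bound by ATF4 with C/EBP proteins was searched as TGATGNAA on both strands. It was in 0 of the 9 windows of the enzymes (Psat1 has 2 starts) and in 3.97% of 32851 windows of all genes. The E-box CACGTG, bound by MYC among others, was in 0 of 9 and in 7.15% of all windows. The CCAAT pentamer, the core bound by NF-Y, was searched after the sequences had been read. It was in 6 of the 9 windows (66.7%), against 37.4% of all windows, with 3 copies each in Mthfd2 and in the first Psat1 window, 2 each in Phgdh and Psph, and 1 each in Shmt1 and Mthfd1. Of the enzymes that did not pass in adults and had a window, Psph and Mthfd1 hold copies, and Shmt2 and Mthfd1l do not. These are matches of letters in short windows and say nothing of sites elsewhere in the genes.

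In neonatal hearts the 9 enzymes again all had higher means in DN-MCU animals, where 59.0% of all genes did, and none passed (limma on the 6 neonatal arrays). At an unadjusted p under 0.05 there were 5 of 9, all higher, against 5.21% of all genes higher; with all 12 arrays fitted there were 4 and with the replicate number as a block 6. DN-MCU and WT arrays did not overlap for 6 of 9, against 9.13% of all genes higher without overlap. In the whole comparison 0 of 11807 genes passed by their brightest probe set and 1 of 24176 probe sets did. Epicardial markers (8 of 8 measured) averaged 7.54 to 8.28 in WT and 7.02 to 7.28 in DN-MCU neonates, and erythroid markers (3 of 8 measured) 9.91 to 10.75 and 9.31 to 9.77. Macrophage markers (8 of 8 measured) averaged 6.80 to 6.96 in WT and 6.45 to 6.77 in DN-MCU neonates. The part of these 3 marker sets in the enzymes' differences was not tested.

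Mthfd2 was at 7.32, 7.63 and 7.53 in WT neonates and 9.75, 10.59 and 9.23 in DN-MCU neonates. The groups were well apart and the DN-MCU arrays scattered more. The difference was 2.36 (SE 0.33; 5.15-fold; limma adjusted p = 0.265), and 2.38 (SE 0.46) by the other probe set. Phgdh was at 6.87, 6.81 and 6.78 in WT neonates and 9.16, 9.68 and 8.43 in DN-MCU neonates. Its WT arrays were nearly equal, and the difference was 2.27 (SE 0.30; 4.82-fold; limma adjusted p = 0.265). By 1456584_x_at and 1426658_x_at it was 1.58 and 1.55 (SE 0.28 and 0.38). Aldh1l2 was at 7.37, 6.34 and 5.69 in WT neonates and 8.70, 8.98 and 8.07 in DN-MCU neonates. Its groups were separate but wide, with a difference of 2.12 (SE 0.45; 4.34-fold; limma adjusted p = 0.479).

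The other 6 differed little in neonates. Psat1 was at 9.16, 9.32 and 9.24 in WT and 9.80, 9.71 and 9.74 in DN-MCU neonates. These small and regular values gave a difference of 0.51 (SE 0.08, 95% confidence interval 0.32 to 0.70; limma adjusted p = 0.265). Shmt2 differed by 0.40 (SE 0.09) and Shmt1 by 0.35 (SE 0.15), with no overlap of the arrays, and Mthfd1l by 0.49 (SE 0.23), Psph by 0.31 (SE 0.14) and Mthfd1 by 0.20 (SE 0.16), with overlap; limma adjusted p was 0.489 or more for these 5. For Shmt1 the gap was narrow, with the highest WT array at 8.48 and the lowest DN-MCU array at 8.50. Its other probe sets gave 0.40, 0.22 and 0.056, each with overlap. The other kept probe sets of Shmt2 gave 0.40 and 0.38 without overlap, and those of Mthfd1 0.016 and -0.018 with overlap. Leaving out 1 array in turn gave 0.26 to 0.66 for Mthfd1l, 0.21 to 0.49 for Shmt1, 0.20 to 0.41 for Psph and 0.034 to 0.32 for Mthfd1. The array DN-MCU neonate 2 was the highest of its group for 8 of the 9 enzymes, as it was for 39.1% of all genes, while its Mcu probe set 1442031_at, at 8.44, was the lowest of the 3. Among DN-MCU adults, arrays 1, 2 and 3 were highest for 4, 0 and 5 of the 9 enzymes (26.9%, 22.8% and 50.3% of all genes).

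**Figure D3:**
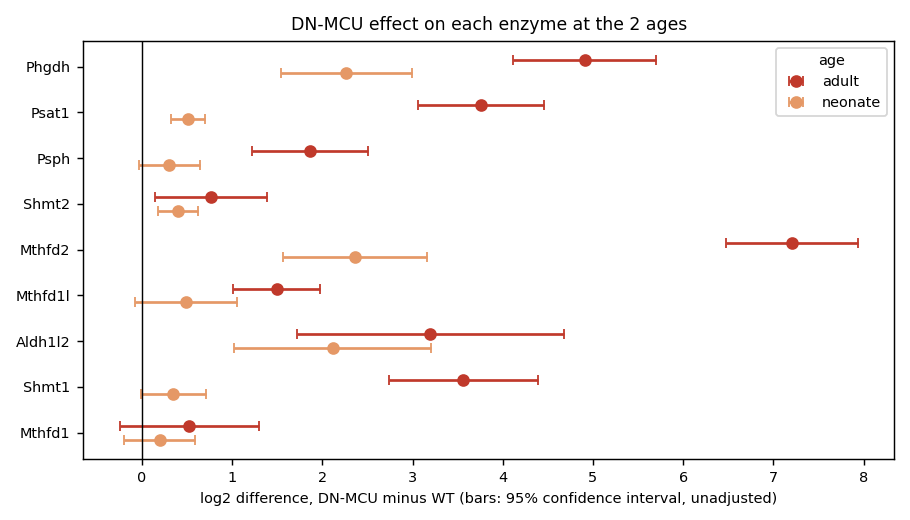
Log2 difference between DN-MCU and WT hearts (horizontal axis) for each enzyme in adults and neonates, with 95% confidence intervals from limma that are not adjusted for the number of genes. The adult estimate lies to the right of the neonatal one for all 9 enzymes, with the widest gap for Mthfd2 (7.20 against 2.36) and overlapping intervals for Shmt2, Mthfd1l, Aldh1l2 and Mthfd1.

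Whether the DN-MCU effect differed between the ages was tested in 1 fit of all 12 arrays. It was larger in adults for Mthfd2, Psat1, Shmt1 and Phgdh (4 of 9), against 0.711% of all genes with a larger difference in adults. The effect of Mthfd2 was larger by 4.84 (SE 0.48; limma adjusted p = 0.00120), that of Psat1 by 3.25 (SE 0.31; 0.00106), that of Shmt1 by 3.21 (SE 0.39; 0.00492) and that of Phgdh by 2.64 (SE 0.47; 0.0336). The call for Phgdh was lost with the neonates blocked by replicate number (limma adjusted p = 0.0763), with 1 variance per group (0.133), after quantile normalization (0.0542), with no filter (0.0750), with both ages blocked (0.0783) and without any 1 of 8 arrays (0.0619 to 0.101). The other probe sets of Mthfd2 (4.35) and Psat1 (4.42) passed as well (limma adjusted p = 0.00535 and 2.18e-04). Those of Shmt1 gave 1.37, 1.29 and 0.63 and did not pass (limma adjusted p = 0.0915, 0.124 and 0.839). For Phgdh, 1426658_x_at (1.85) and 1456584_x_at (1.30) did not pass (limma adjusted p = 0.204 and 0.294), nor did the erratic 1454714_x_at. The calls of Shmt1 and Phgdh thus rest on 1 probe set each. Psph missed the threshold (1.56, SE 0.31, limma adjusted p = 0.0542), and passed without WT adult 1 (0.0178) or DN-MCU adult 3 (0.0395). Aldh1l2 (1.08, SE 0.81), Mthfd1l (1.00, SE 0.32), Shmt2 (0.37, SE 0.28) and Mthfd1 (0.33, SE 0.37) did not pass either.

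Averaged over the 2 ages, 7 of the 9 enzymes were higher in DN-MCU hearts, against 1.55% of all genes. These were Mthfd2 (4.78, SE 0.24), Phgdh (3.59, SE 0.23), Aldh1l2 (2.66, SE 0.41), Psat1 (2.13, SE 0.15), Shmt1 (1.96, SE 0.20), Psph (1.08, SE 0.16) and Mthfd1l (0.99, SE 0.16). All 7 passed in limma with adjusted p of 0.0123 or less, and kept the call without any 1 of the 12 arrays. Shmt2 (0.58, SE 0.14, adjusted p = 0.0707) and Mthfd1 (0.36, SE 0.19, adjusted p = 0.463) did not pass; Shmt2 did without WT adult 1 (0.0294) or DN-MCU adult 2 (0.0290). Mthfd1l lost the call with 1 variance per group (limma adjusted p = 0.0783).

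In WT hearts 7 of the 9 enzymes were higher at 1 day than at 42 days and Mthfd1 was lower, where 32.4% of all genes were higher and 19.8% lower (limma on the 6 WT arrays). Psat1 was higher by 4.20 (SE 0.17; 18.3-fold; limma adjusted p = 1.60e-05) and Shmt1 by 3.90 (SE 0.18; 14.9-fold; 2.30e-05). Mthfd2 was higher by 3.01 (SE 0.24; 8.04-fold; 1.55e-04), and Psph, Phgdh, Mthfd1l and Shmt2 by 1.64, 1.31, 1.24 and 0.78 (SE 0.22, 0.26, 0.16 and 0.19). The Phgdh probe sets 1456584_x_at and 1426658_x_at differed by 0.08 and 0.15 between the ages (SE 0.15 and 0.23), and for Shmt1 the other 3 probe sets gave 1.96, 1.41 and 0.19 (SE 0.20, 0.19 and 0.39). For Shmt2, 1426423_at gave 1.11 (SE 0.18), and 1455985_x_at gave 0.27 (SE 0.18, limma adjusted p = 0.257) with overlap. Aldh1l2 overlapped (1.41, SE 0.58, limma adjusted p = 0.0848), and passed without WT adult 2 (0.0269). Mthfd1 went against the rest, with 7.82 to 8.14 in WT adults and 7.15, 7.38 and 7.30 in WT neonates, a difference of -0.71 (SE 0.13; limma adjusted p = 0.00488). Its probe set 1415917_at was also lower in neonates (-0.48, SE 0.15, adjusted p = 0.0364), and 1436704_x_at was not (-0.035, SE 0.11). Proliferation markers moved with age, with means of 9.73 to 9.85 in WT neonates and 3.99 to 4.24 in WT adults, and macrophage markers (8 of 8 measured) lay at 6.80 to 6.96 in WT neonates and 9.01 to 9.49 in WT adults; their part in the age differences was not tested.

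The order of the 4 groups is given by the brightest probe set of each gene. For Psat1, Shmt1 and Shmt2 the means rose from WT adult through DN-MCU adult and WT neonate to DN-MCU neonate, and the middle groups overlapped. The middle means of Shmt2 were nearly equal (9.08 and 9.09), and by 1455985_x_at WT neonate (7.67) came below DN-MCU adult (7.83). By the Shmt1 probe set 1425177_at DN-MCU adult was highest (7.32). The other kept probe sets of these genes gave the same order of means. For Psph and Mthfd1l WT adult was lowest and apart, and the other 3 groups overlapped with their neighbours. For Mthfd2 and Phgdh WT adult came lowest, then WT neonate, then DN-MCU neonate, then DN-MCU adult, with no overlap between neighbours. By the Phgdh probe sets 1456584_x_at and 1426658_x_at the WT ages overlapped, with means of 5.06 and 4.90 in adults and 5.14 and 5.05 in neonates. Aldh1l2 overlapped between all neighbours with WT adult lowest, then WT neonate, then DN-MCU adult, and DN-MCU neonate highest. DN-MCU adults thus overlapped WT neonates for 6 of 9 enzymes (43.3% of all genes do) and lay above every WT neonate for Mthfd2, Phgdh and Mthfd1 (22.6% of all genes). For Mthfd1 both adult groups lay above both neonatal groups.

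Of the genes around these enzymes 50 were measured: 7 of 14 other folate enzymes, 12 of 12 carriers of folate, serine and glycine, 2 of 4 glycine cleavage genes, 8 of 14 genes of serine and glycine use, 9 of 14 of the methionine cycle and transsulfuration and 12 of 15 of purine synthesis. None of the 50 passed in either direction in adults or in neonates (limma). By list, in that order, 0, 3, 0, 2, 2 and 3 of them had an unadjusted p under 0.05 in adults, where 10.9% of all genes were. Their adult medians were 0.08, 0.25, -0.47, 0.19, -0.0023 and 0.02, against 2.35 for the 4 mitochondrial and 3.76 for the 3 serine enzymes. Mthfd2l, a mitochondrial relative of Mthfd2, differed by -0.33 (SE 0.26) in adults and 0.05 (SE 0.09) in neonates. Its other kept probe sets gave -0.92, -0.17 and 0.32 in adults (SE 0.29, 0.41 and 0.32; limma adjusted p of 0.353 or more), so neither its size nor its sign was settled. Slc25a32, the carrier that brings folate into mitochondria, differed by -0.11 (SE 0.38) and 0.31 (SE 0.13), with 0.35 (SE 0.26) in adults by its other kept probe set. Sfxn1, the mitochondrial serine transporter, differed by 0.31 (SE 0.20) and 0.09 (SE 0.19). Limma adjusted p was 0.681 or more for the brightest probe sets of these 3 at both ages.

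Averaged over the ages, 4 of these 50 genes passed, all higher in DN-MCU, where 1.55% of all genes did; they are named after their values were seen. They were the serine and alanine transporter Slc1a4 (1.20, SE 0.23, limma adjusted p = 0.0270), the glycine transporter Slc6a9 (0.95, SE 0.20, 0.0436), the folate receptor Folr1 (0.83, SE 0.18, 0.0442) and serine racemase, Srr (0.89, SE 0.15, 0.0150). Their adult differences were 1.78 (SE 0.39), 1.40 (SE 0.33), 1.64 (SE 0.33) and 1.54 (SE 0.26), and their neonatal ones 0.62 (SE 0.19), 0.51 (SE 0.20), 0.0086 (SE 0.068) and 0.24 (SE 0.12). Folr1 was above the dim level of 3.35 only in the 3 DN-MCU adults (4.93, 3.65 and 4.25) and lay between 2.60 and 2.69 in the other 9 arrays. It was thus kept only through the group where it was high, and its size is measured from a dim baseline.

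**Figure D4:**
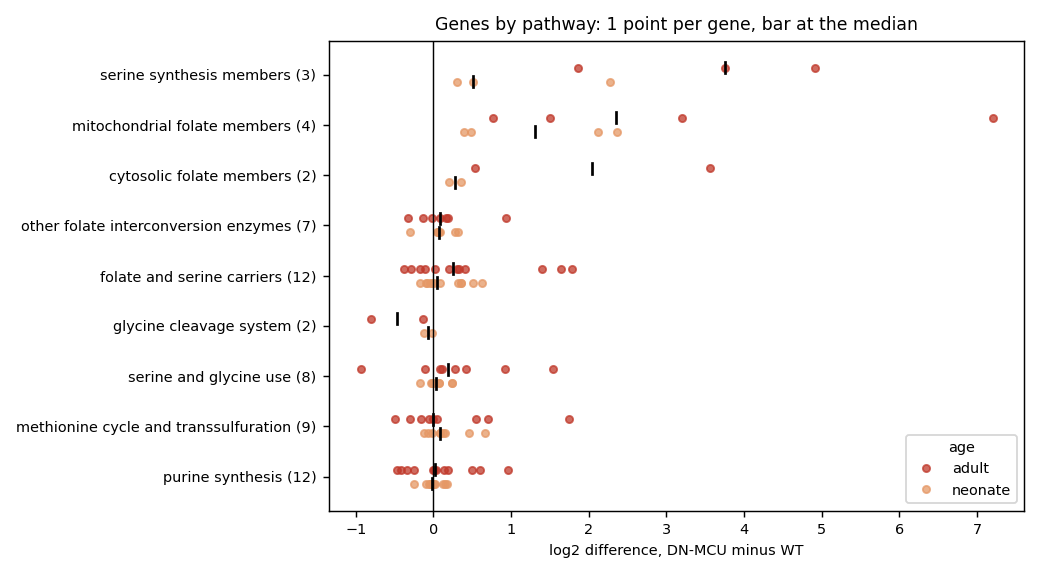
Log2 difference between DN-MCU and WT hearts (horizontal axis) for each gene of the serine, folate and neighbouring pathways, with adults above neonates in each row, the number of measured genes in brackets and a bar at the median. In adults the mitochondrial folate row reaches 7.20, the serine synthesis row 4.91 and the cytosolic folate row 3.56. The 6 other rows stay between -0.94 and 1.78. Mthfd1 (0.53), Shmt2 (0.77) and Mthfd1l (1.49) lie inside that range in adults. So do the neonatal values of all enzymes but Mthfd2, Phgdh and Aldh1l2.

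Between the ages in WT hearts, 14 of these 50 genes were higher and 11 lower in neonates, shares near those of all genes (32.4% and 19.8%). At most 3 per list, those with the smallest p, are named. Of the folate enzymes, Mthfd2l (2.09, SE 0.13), Ggh, which trims the glutamate tail of folates (0.59, SE 0.12), and Ftcd, which feeds folate from histidine breakdown, were higher in neonates. Of the carriers, Slc38a2, a neutral amino acid transporter (0.95, SE 0.10), and Sfxn1 (0.80, SE 0.22) were higher, and Folr2, a folate receptor known from macrophages, was lower; Sfxn1 lost its call without 3 of the 6 arrays in turn (limma adjusted p up to 0.0687). Gcsh, the carrier protein of glycine cleavage, was lower (-0.69, SE 0.12). Among users of serine and glycine, Sptlc2 of sphingolipid synthesis was higher (1.01, SE 0.15), and Alas1 of heme synthesis (-0.99, SE 0.14) and Ptdss1 of phosphatidylserine synthesis (-1.05, SE 0.21) were lower. Ahcy of the methionine cycle was higher (1.05, SE 0.14), and Mmachc of cobalamin handling (-0.73, SE 0.14) and Cth of transsulfuration were lower. In purine synthesis Prps2 (1.72, SE 0.22) and Adss (0.95, SE 0.22) were higher and Adssl1 was lower (-0.77, SE 0.15); Adss lost its call in the fit of all 12 arrays (limma adjusted p = 0.119). These 16 had limma adjusted p of 0.0225 or less. Ftcd, Folr2 and Cth lay around or under the dim level of 3.35 at one age, so no size is given: Ftcd was at 2.99 to 3.55 in WT adults and 7.23 to 7.42 in WT neonates, Folr2 at 6.31 to 6.78 and 2.37 to 2.66, and Cth at 4.17 to 5.68 and 2.78 to 2.82.

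Likeness of pattern was measured as the root mean square difference of log2 values over the 12 arrays, after centring each gene on the WT mean of the same age. Nearest to Mthfd2 among 11807 genes were Asns (0.473), Trib3 (0.789), Fgf21 (0.909) and Slc7a5 (0.947). Nearest to Phgdh were Slc7a3 (0.713), Trib3 (0.769), Slc7a5 (0.846) and Asns (0.867). Nearest to Psat1 were Cyb5r1 (0.278), Otub2 (0.282), Shmt1 (0.310) and Pcbd1 (0.316). The nearest gene of Psat1, Cyb5r1, differed by 3.34 in adults and 0.41 in neonates. Asns, the nearest gene of Mthfd2, differed by 6.55 and 2.74.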

How the data were processed

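Per the labels' protocols, biotinylated cRNA was hybridized to Affymetrix 3′ arrays, 12 in all. The authors deposited their signals as 1 table of log2 values. That scale, and that arrays had been normalized, were read off the values themselves; which algorithm was used is not given in the sources used, and Partek is named without a role in the submitters' processing notes. The 64 control probe sets were removed, and probe sets stayed in that were above the median of the table (3.35) in at least 3 arrays, which left 24176 and 11807 genes. Of the members' 22 probe sets 21 were kept, and the brightest of each of the 9 genes exceeded that level in all arrays.

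Each genotype comparison was fitted with limma 3.58.1 (R 4.3.3) on the 6 arrays of its age, because the median SD was 0.226 and 0.400 in WT and DN-MCU adults and 0.132 and 0.141 in neonates; a fit of all 12 arrays, array weights, quantile normalization, median subtraction, other filters and left-out arrays were alternatives. P values were adjusted by Benjamini-Hochberg over all probe sets. Replicates are biological per the labels, which do not say whether each is 1 animal. The main fits did not pair the arrays, and replicate number entered only as a block in alternative fits. Same-numbered neonatal arrays correlated in their deviations (0.133, 0.223 and 0.283, all above 0.1). Adult ones did not do so consistently (-0.381, 0.410 and -0.428). Members and lists were chosen with earlier results of these data known. Named are all members, Aldh1l1, Mthfd2l, Slc25a32, Sfxn1, in each list the genes with the smallest p that passed (at most 4, and 3 for the WT ages), and the nearest genes by pattern. Depth is not defined for arrays; their number limits the precision.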

Additional observations from a re-analysis of the deposited data

Results flagged for a closer look

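For 4 enzymes the DN-MCU effect differed between adults and neonates by a test of the difference itself (limma over all 12 arrays). It was larger in adults by 4.84 on the log2 scale for Mthfd2, 3.25 for Psat1, 3.21 for Shmt1 and 2.64 for Phgdh, with adjusted p of 0.00120, 0.00106, 0.00492 and 0.0336. These values are of the brightest probe sets. The other probe sets of Mthfd2 and Psat1 passed too, and those of Shmt1 and Phgdh did not. By the brightest probe sets the WT level of all 4 itself differed by age. Psat1 and Shmt1 were at 9.24 ± 0.08 and 8.21 ± 0.28 in WT neonates (SD, n = 3). They were at 5.04 ± 0.30 and 4.31 ± 0.17 in WT adults, and DN-MCU adults reached 8.80 ± 0.45 and 7.87 ± 0.64. Mthfd2 and Phgdh were at 7.49 ± 0.15 and 6.82 ± 0.05 in WT neonates. They were at 4.48 ± 0.44 and 5.51 ± 0.52 in WT adults, and DN-MCU adults reached 11.69 ± 0.35 and 10.42 ± 0.35.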

How the results depend on the processing

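Each enzyme stayed higher in DN-MCU hearts at both ages by its brightest probe set under every alternative that kept that probe set; the stricter filter dropped Mthfd1l, and leaving out cross-matching probe sets dropped Phgdh, Psat1 and Shmt2. Of the enzymes, 4 passed in adults: 7 did with all 12 arrays in 1 fit, 7 with array weights, 2 without cross-matching probe sets (fewer enzymes tested), 2 with the replicate number as a block, and 1 to 4 without single arrays. The 112 probe sets that passed in adults became 1152 with 12 arrays, 964 with array weights, 74 with no filter, 16 with the replicate block and 17 to 175 without single arrays. In neonates 1 probe set passed: 4 with 12 arrays, 2 with array weights, 2 with array medians subtracted, 2 with the stricter filter (log2 7.25), 2 with an intensity trend, 0 with no filter, 0 with the replicate block and 0 to 3 without single arrays, with 0 enzymes each time. The difference between the ages passed in 190 probe sets and became 39 with the replicate block, 71 with the neonatal replicate block alone (chosen after seeing the data) and 70 to 636 without single arrays, with 3 to 5 enzymes; the average passed in 444 and became 143, 212 and 183 to 936. The WT age comparison passed in 12285 and became 7917 with the stricter filter. Blocking adults by replicate number also ended the calls of Psat1 and Shmt1 (limma adjusted p = 0.0665 and 0.133), and the same block in both ages those of Psph and Mthfd1l in the average (0.0644 and 0.0548); the neonatal block changed no other enzyme's call than that of Phgdh in the difference between ages. Shmt2 minus Shmt1 in neonates turned to -0.076 without WT neonate 1, and lay between -0.076 and 0.16 without single arrays. Where no cause is named it was not tested. Changes of the dimmest signals, near 3.35, are measured least well.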

Other observations

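The Aldh1l1 probe set 1424400_a_at had the same pattern in every group: replicate 3 was at 8.59 and 9.58 in WT and DN-MCU adults and at 7.35 and 7.02 in WT and DN-MCU neonates, and the other 8 arrays were at 4.27 or less. Of 24176 probe sets it was the only 1 in which replicate 3 exceeded the other arrays of its group by at least 2 on the log2 scale in all 4 groups; for replicates 1 and 2 there was none. The second Aldh1l1 probe set was dim in all arrays, between 2.02 and 2.13.

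The erratic Phgdh probe set 1454714_x_at was also high in replicate 3 of the DN-MCU groups (9.83 in adults, 7.55 in neonates, against 2.33 to 2.43 in their other arrays). In WT neonates it was high in replicates 1 and 3 (6.23 and 6.28) and at 2.41 in replicate 2, and in WT adults at 4.01, 2.35 and 3.83.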
